A study of Mus musculus with 3 samples.

Results

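Heat shock proteins and their partners were described across the RNA sequencing libraries of macrophages sorted from inflamed mouse lung. The set comprised the genes whose symbols begin with Hsp90, Hspa, Hspb, Hspd, Hspe, Hsph, Dnaja, Dnajb or Dnajc, together with the numbered Cct genes, Tcp1 and the transcription factor gene Hsf1. It held 72 genes out of 12880 with a value, which were 3 of the HSP90 class, 11 of the HSP70 class, 3 of the HSP110 class, 2 of the mitochondrial chaperonin, 8 subunits of the cytosolic chaperonin TRiC, 3 with a small heat shock protein symbol, 2 HSP-binding proteins, 39 J-domain proteins and Hsf1. A further 13 RefSeq genes with such symbols carried no value here, among them Hspb1, Hspb8, Cct6b and Dnajc6. Not every member is a chaperone: Hspb11 is also known as the intraflagellar transport protein IFT25, and many Dnajc genes share with the family no more than the J domain.

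The mice were C57BL/6 animals of the LysM-GFP line, 6 to 8 weeks old, in which the lysozyme M locus drives a green fluorescent protein in myeloid cells, and acute lung injury was produced by nebulized lipopolysaccharide (LPS) at 1 mg/ml. The groups were 4 h, 24 h and 0 h, with 1 library each, and the label of the 0 h library carries the same treatment text as the others, so it is not an established untreated control. Every suspension was made by collagenase digestion for 50 minutes at 37 degrees before cells positive for GFP and CD64 and negative for Ly6g were sorted, while the headers of the deposited columns name CD11b, and how many animals went into a library is not given. The recovered reads numbered 20379236 at 4 h, 25135476 at 24 h and 24825976 at 0 h. No time point had a replicate, so no difference has a replicate check and no p-value is given. The intervals in parentheses are 95% exact binomial intervals that cover counting error only, and "higher" and "lower" describe these libraries.

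Markers of cell types and of sex differed between the libraries. At 4 h against 0 h, 13 of 17 alveolar macrophage markers were lower by 2-fold or more, with summed levels of 359413 and 935998 normalized counts, while 9 of 10 classical monocyte markers were higher by that much, with sums of 482991 and 110739. All 11 neutrophil markers with a value in both libraries were higher by that much (sums of 41678 and 5194), Ly6g itself carrying no value. Of 8 lung epithelial markers 2 were higher and 2 lower, and the club cell transcript Scgb1a1 stood at 3977 at 4 h and 90.6 at 0 h. The macrophage genes Csf1r, Cd68 and Fcgr1, which encodes the sorted CD64, were present at all times, Fcgr1 with 2479, 7237 and 2887 normalized counts at 0, 4 and 24 h. The female transcript Xist had 12798, 5.08 and 0.822 normalized counts at 0, 4 and 24 h, while the Y-linked Ddx3y had 3.74, 5070 and 1937, so sex and time cannot be told apart in any comparison with 0 h. The part of cell makeup in the results below was not tested, and in a bulk library fewer cells of a type cannot be told apart from less RNA per cell.

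Chaperones bind unfolded or unfinished proteins and help them fold, assemble or be degraded. HSP70 proteins clamp short hydrophobic stretches in an ATP-driven cycle that J-domain proteins start and HSP110 proteins reset, HSP90 completes the folding of kinases and receptors, and chaperonins enclose whole proteins in a chamber. HSF1 switches on the stress-inducible members in the cytosol, through arrays of inverted GAA units, while the unfolded protein response switches on those of the endoplasmic reticulum (ER). In activated macrophages the ER system faces the load of newly made secreted and surface proteins.

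Between 4 h and 0 h 60 of the 72 members lay within 2-fold. Higher by at least 2-fold were Dnaja1, Hspa1a, Hsp90aa1, Dnajc13, Hspa1b, Dnajc21 and Hsph1, which makes 7 of 72 (9.72%), and the same was true of 15.0% of all 12512 genes. Lower by at least 2-fold were Hspa12a, Hspb6, Dnajc9, Hspb9 and Dnajb13, which makes 5 of 72 (6.94%), against 14.2% of all genes. These calls use the ratio of normalized read counts after adding a pseudocount of 1. The share of members past the threshold was thus below the background in both directions. The members' median log2 ratio was 0.10, with quartiles at -0.25 and 0.48, where all genes had a median of 0.00 and quartiles at -0.54 and 0.59. Scaling by total reads shifted the median of all genes by -0.16 on the log2 scale and gave 4 higher and 7 lower members (12.3% and 17.1% of all genes), with Hspa1b, Dnajc21 and Hsph1 no longer past the threshold. Scaling on the ribosomal protein genes gave 8 and 5 (16.5% and 12.7% of all genes). With the authors' deposited log2 fold changes, which are shrunken toward 0, 3 of 72 members were at 1 or above (8.86% of all genes) and 3 at -1 or below (9.02%).

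**Figure D1:**
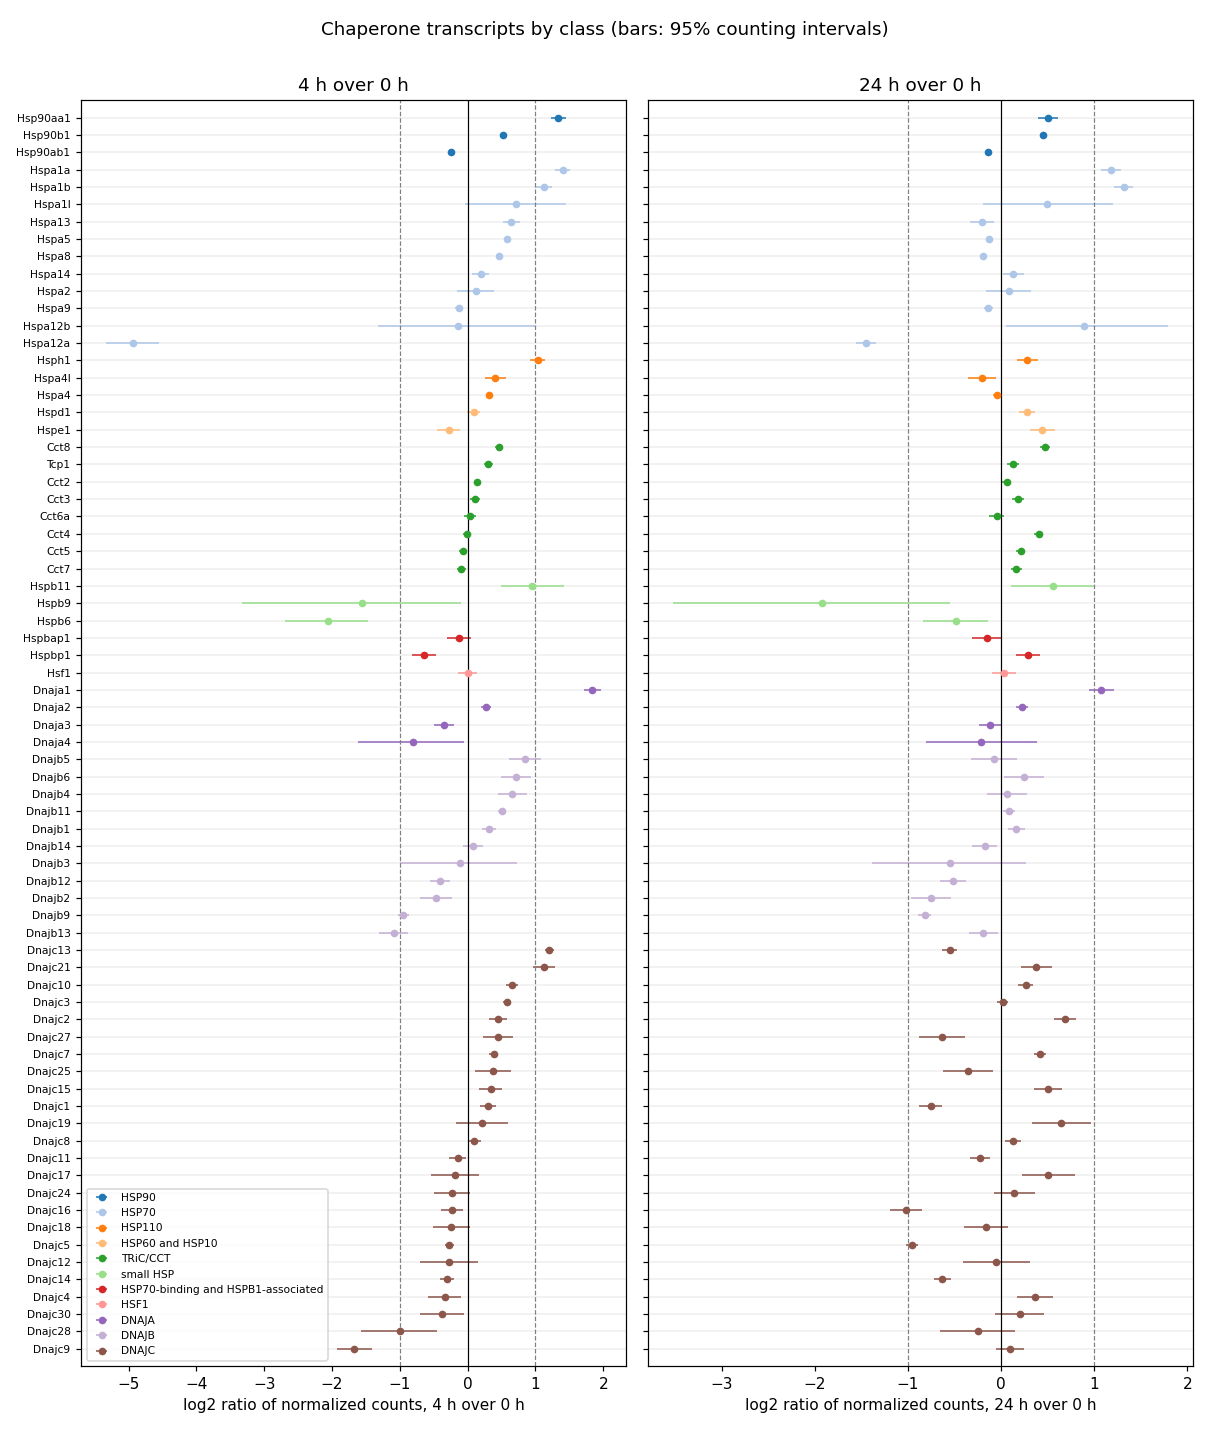
Log2 ratio of normalized counts for each of the 72 members, at 4 h over 0 h on the left and 24 h over 0 h on the right, grouped by class, with 95% counting intervals as bars, no pseudocount and dashed lines at 2-fold. The TRiC subunits sit close to 0 in both panels, Dnaja1, Hspa1a, Hspa1b and Hsp90aa1 lie to the right of the line at 4 h, and in that panel Hspa12a lies furthest to the left.

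The HSP90 class split by isoform. Hsp90aa1, the inducible cytosolic HSP90, had 1054 normalized counts in the 0 h library, 2666 in the 4 h library and 1498 in the 24 h library. It was 2.53-fold higher at 4 h than at 0 h (2.35 to 2.72) and 1.78-fold lower at 24 h than at 4 h (1.67 to 1.90). Hsp90ab1, the constitutive cytosolic HSP90, had 34497, 29209 and 31213, and Hsp90b1, the ER form also called GRP94, had 21087, 30390 and 28685. The inducible isoform was the 1 of the 3 past 2-fold at 4 h, and Hsp90b1 was above its 0 h level at both later times, although at 24 h its log2 ratio of 0.44 became -0.15 on the ribosomal scale. Within a library no scaling is needed, and there were 3.06 Hsp90aa1 reads for every 100 of Hsp90ab1 at 0 h (2.88 to 3.24), 9.13 at 4 h (8.72 to 9.54) and 4.80 at 24 h (4.58 to 5.03). Of the windows of 50 bases in the longest Hsp90aa1 transcript, 58.5% also occur in another annotated gene, among them Gm12346 and Gm5844, and how such reads were counted is not given in the sources used here.

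Among HSP70 genes the inducible pair was higher at both later times. Hspa1a (chromosome 17, 34969358 to 34972156, minus strand) had 932, 2457 and 2115 normalized counts at 0, 4 and 24 h, and its neighbour Hspa1b (chromosome 17, 34956428 to 34959238, minus strand) had 929, 2031 and 2309. Both encode the stress-induced cytosolic HSP70, and 66.3% of the Hspa1a windows also occur elsewhere, in Hspa1b and others. Reads may thus be split between the pair, and their sum was 2.41-fold higher at 4 h than at 0 h (2.28 to 2.55) and 2.38-fold higher at 24 h than at 0 h (2.26 to 2.50). The sum at 24 h against 4 h stood at a ratio of 0.986 (0.945 to 1.03). Hspa8, the constitutive cytosolic HSP70 that also uncoats clathrin vesicles, had 16702, 23101 and 14534, highest at 4 h and lowest at 24 h. The reads of the inducible pair per 100 Hspa8 reads were highest at 24 h, at 11.1 at 0 h (10.6 to 11.7), 19.4 at 4 h (18.7 to 20.1) and 30.4 at 24 h (29.5 to 31.4). Hspa8 shares 74.8% of its windows with other annotated genes, so its level is uncertain.

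The remaining HSP70 genes were mixed. Hspa5, the ER HSP70 known as BiP, was the most abundant member in normalized counts at 4 h, with 34249, 51357 and 31325 over the 3 times, and the mitochondrial Hspa9 had 5780, 5305 and 5251. Hspa13, a microsomal HSP70 relative, had 942, 1471 and 818. Hspa14, a ribosome-associated form, had 1069, 1222 and 1169, and Hspa2, best known from the male germ line, had 246, 267 and 260. The highest ratio between times in this pair was 1.14, for Hspa14 at 4 h against 0 h. Hspa1l (28.0, 45.7 and 39.4) and Hspa12b (16.8, 15.2 and 31.2) were at low levels.

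Hspa12a had the furthest ratio from 1 among the members in 2 comparisons, 4 h against 0 h and 24 h against 4 h. This atypical HSP70 family gene, on chromosome 19 (58795750 to 58943672, minus strand), had 2247 normalized counts in the 0 h library, 73.6 in the 4 h library and 821 in the 24 h library. It was 30.5-fold lower at 4 h than at 0 h (23.5 to 40.3), 11.2-fold higher at 24 h than at 4 h (8.55 to 14.8), and still 2.74-fold lower at 24 h than at 0 h (2.54 to 2.95). The authors' deposited table gives its log2 fold change at 4 h as -2.90, which is shrunken toward 0. The alveolar macrophage markers had a median log2 ratio of -2.02 at 4 h and 1.62 at 24 h against 4 h, and their part in the Hspa12a difference was not tested. Eno4, which overlaps it on the other strand, had 14.0, 31.7 and 27.1 at 0, 4 and 24 h, and whether the counting used strand is not given.

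**Figure D2:**
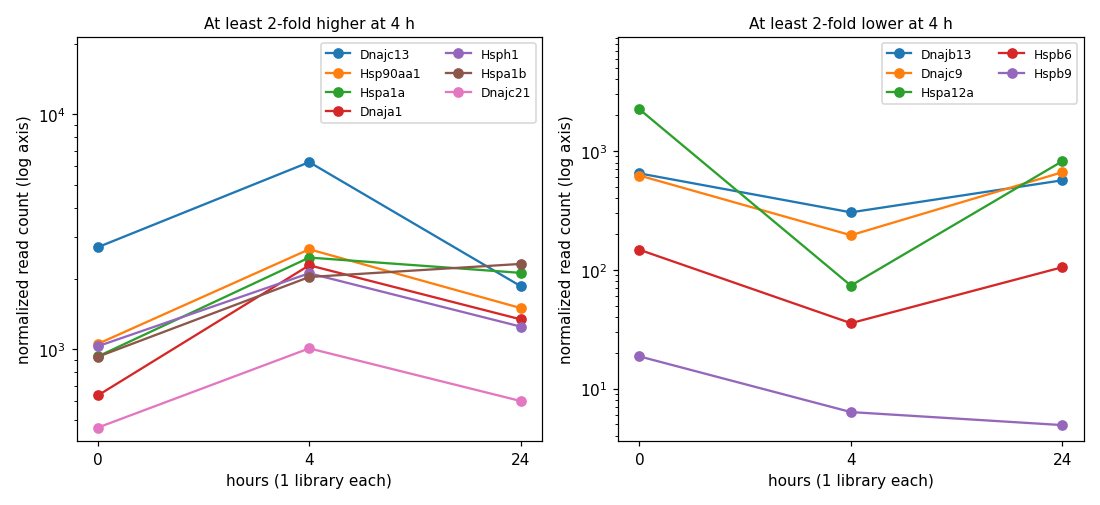
Normalized read counts (log axis) at 0, 4 and 24 h, 1 library each, for the 7 members past 2-fold upward and the 5 past 2-fold downward at 4 h against 0 h. Hspa1a and Hspa1b stand at 2115 and 2309 at 24 h, Dnajc13 ends at 1856, below its 2719 at 0 h, and Hspa12a passes through 73.6.

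The HSP110 proteins, nucleotide exchange factors for HSP70, also comprise inducible and constitutive genes. Hsph1, the inducible HSP110, had 1030, 2107 and 1249 normalized counts at 0, 4 and 24 h, 2.05-fold higher at 4 h than at 0 h, with an interval of 1.89 to 2.21 that reaches below 2-fold. Hspa4 had 6054, 7531 and 5881, and Hspa4l had 642, 852 and 556. There were 17.0 Hsph1 reads per 100 Hspa4 reads at 0 h (15.9 to 18.1), 28.0 at 4 h (26.5 to 29.5) and 21.2 at 24 h (20.1 to 22.5). Hsf1 itself, whose protein is controlled mainly after translation, had 898, 897 and 917 normalized counts.

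**Figure D3:**
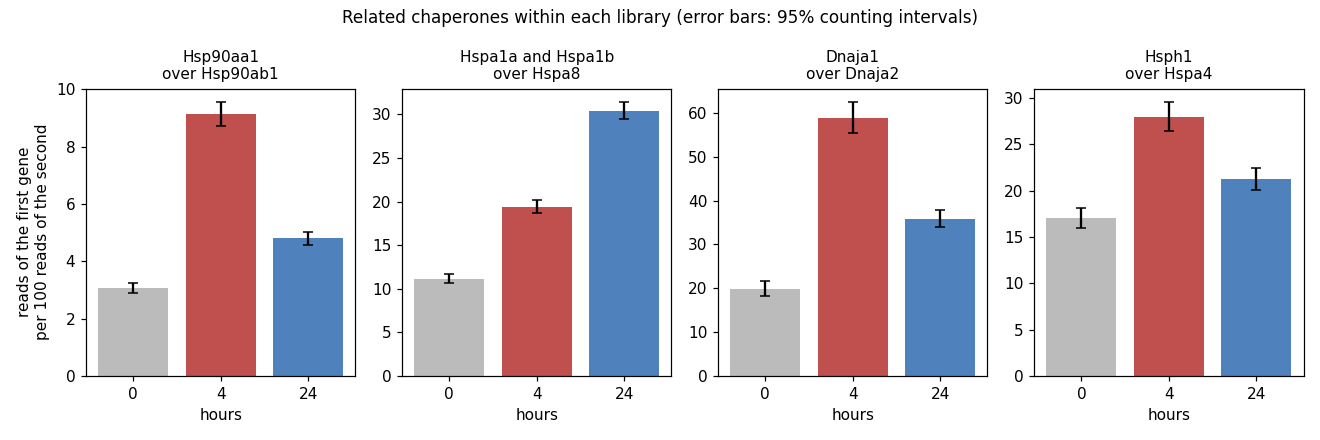
Reads of 1 gene, or of the Hspa1a and Hspa1b pair, per 100 reads of a related chaperone in the same library at 0, 4 and 24 h, with 95% counting intervals as error bars. The ratio peaks at 4 h for Hsp90aa1 (9.13), Dnaja1 (58.9) and Hsph1 (28.0), while that of Hspa1a and Hspa1b is highest at 24 h (30.4).

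Promoter sequence was examined for the members because they include known targets of HSF1 and of the unfolded protein response. RefSeq (GRCm38.p6, the build equivalent to mm10) gave promoter windows for 59 of the 72, from 250 bases before to 50 after an annotated start. There were none for Hsp90aa1, Hspa8, Hsf1 or 10 others. The 59 had 77 windows, since some genes have several annotated starts, and a match in any window counted for its gene. A heat shock element is built of inverted units, searched as GAANNTTC, as TTCNNGAA and as a longer form, GAANNTTC directly followed by NNGAA, that holds both. The ER stress element was searched as CCAAT and CCACG with 9 bases of any kind between, and every search covered both strands. The longer heat shock form was in 6.78% of the 59 members (Dnajb6, Hspd1, Hspe1 and Hsph1) and in 0.662% of all 27025 genes with a window. The ER stress element was in 5.08% (Dnajc3, Hsp90b1 and Hspa5) and in 0.137%. The longer heat shock matches of Hspd1 and Hspe1 are the same stretch read from opposite strands, so it counted for both genes. The shorter GAANNTTC was in 18.6% of members and 9.04% of all genes, and TTCNNGAA was in 13.6% and 9.60%. GAANNTTC was in Cct2, Dnaja1, Dnaja4, Dnajb6, Dnajc27, Hspa1a, Hspa1b, Hspb6, Hspd1, Hspe1 and Hsph1. Of these, Dnaja1, Hspa1a, Hspa1b and Hsph1 were at least 2-fold higher at 4 h than at 0 h, and Hspb6 was at least 2-fold lower. Dnajc13 and Dnajc21, also at least 2-fold higher, held none of the heat shock forms. Whether matches and ratios go together was not tested. A match describes these letters and is not shown to be a bound site.

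The stretches below give the 150 bases up to an annotated start, 5′ to 3′ on the gene's strand, with motif matches in capitals. The first 4 belong to genes that were at least 2-fold higher at 4 h and carry heat shock units, the longer form of Hsph1 lying after the start and so outside the stretch.
Dnaja1 (chr4:40722318-40722467, plus strand): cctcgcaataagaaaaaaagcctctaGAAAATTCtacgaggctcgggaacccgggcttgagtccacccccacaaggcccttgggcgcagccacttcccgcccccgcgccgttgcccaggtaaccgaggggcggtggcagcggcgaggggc
Hspa1a (chr17:34972157-34972306, minus strand): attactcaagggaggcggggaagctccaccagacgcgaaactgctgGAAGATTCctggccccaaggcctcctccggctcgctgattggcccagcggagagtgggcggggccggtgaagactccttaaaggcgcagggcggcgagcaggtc
Hspa1b (chr17:34959239-34959388, minus strand): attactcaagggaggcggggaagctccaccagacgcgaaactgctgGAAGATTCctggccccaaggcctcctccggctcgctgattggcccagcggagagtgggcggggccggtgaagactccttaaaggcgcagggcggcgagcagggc
Hsph1 (chr5:149636337-149636486, minus strand): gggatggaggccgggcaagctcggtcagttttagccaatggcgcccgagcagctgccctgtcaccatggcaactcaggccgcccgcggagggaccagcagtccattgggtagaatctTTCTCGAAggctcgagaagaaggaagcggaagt
The Hspd1 and Hspe1 genes lie head to head, and their windows hold the same overlapping units although neither gene reached 2-fold at any time.
Hspd1 (chr1:55087933-55088082, minus strand): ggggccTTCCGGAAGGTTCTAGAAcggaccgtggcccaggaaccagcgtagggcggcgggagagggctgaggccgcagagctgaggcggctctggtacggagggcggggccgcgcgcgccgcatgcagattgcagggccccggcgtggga
Hspe1 (chr1:55087998-55088147, plus strand): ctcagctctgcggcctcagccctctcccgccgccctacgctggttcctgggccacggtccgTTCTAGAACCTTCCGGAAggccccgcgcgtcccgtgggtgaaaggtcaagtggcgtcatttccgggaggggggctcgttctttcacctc
The last 3 are the ER genes with the ER stress element, the match shown for Hsp90b1 lying on the other strand. Its window holds a further match on the same strand, before the stretch shown.
Hspa5 (chr2:34771940-34772089, plus strand): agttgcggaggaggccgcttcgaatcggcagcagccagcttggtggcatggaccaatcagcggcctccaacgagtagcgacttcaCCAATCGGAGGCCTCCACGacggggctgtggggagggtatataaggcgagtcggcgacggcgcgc
Hsp90b1 (chr10:86705445-86705594, minus strand): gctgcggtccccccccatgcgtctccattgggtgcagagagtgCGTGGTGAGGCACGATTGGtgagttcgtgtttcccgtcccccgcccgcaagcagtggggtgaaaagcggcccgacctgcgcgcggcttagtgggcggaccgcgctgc
Dnajc3 (chr14:118937782-118937931, plus strand): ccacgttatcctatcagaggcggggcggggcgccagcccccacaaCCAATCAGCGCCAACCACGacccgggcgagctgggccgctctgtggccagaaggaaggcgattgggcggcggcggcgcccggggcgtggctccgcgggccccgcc

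The members with the longer heat shock form did not all have high ratios. It is present upstream of Hspd1 and Hspe1, which had 1891, 2012 and 2293 normalized counts and 679, 560 and 922 at 0, 4 and 24 h. These genes encode the ring (HSP60) and the lid (HSP10) of the mitochondrial chaperonin, and 44.8% of the windows of each are shared with other annotated genes. Dnajb6, which holds the motif as well and prevents aggregation of polyglutamine proteins, had 288, 471 and 340, a ratio of 1.64 at 4 h against 0 h (1.40 to 1.91). Other annotated genes share 42.8% of the Dnajb6 windows. Hspa1a and Hspa1b, with the shorter unit in the printed stretch, had higher ratios, at 2.64 (2.44 to 2.85) and 2.19 (2.02 to 2.37).

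The subunits of TRiC, the ring-shaped chaperonin that folds actin and tubulin, did not reach 2-fold in any comparison. At 4 h against 0 h the log2 ratios ran from -0.09 for Cct7 to 0.46 for Cct8, and at 24 h against 0 h from -0.05 for Cct6a to 0.47 for Cct8. Tcp1, the first subunit named, had 3785, 4680 and 4133 normalized counts at 0, 4 and 24 h, and Cct2, the most abundant, had 6813, 7517 and 7099. Cct3 had 3165, 3396 and 3588, Cct4 had 5090, 5075 and 6735, and Cct5 had 6077, 5791 and 7019. Cct6a had 2272, 2328 and 2198, Cct7 had 3773, 3538 and 4224, and Cct8 had 4508, 6198 and 6243. Of the 8, 7 were higher at 24 h than at 0 h, the exception being Cct6a, with a median log2 ratio of 0.17, but of -0.42 on the ribosomal scale. Per kilobase of annotated exon the highest subunit stood 3.58-fold above the lowest at 0 h, 3.86-fold at 4 h and 4.23-fold at 24 h, Cct6a being the lowest each time.

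J-domain proteins recruit HSP70 to its clients. In the DNAJA class Dnaja1, a cytosolic partner of HSP70, had 636, 2278 and 1341 normalized counts at 0, 4 and 24 h, 3.58-fold higher at 4 h than at 0 h (3.28 to 3.92) and 2.11-fold higher at 24 h than at 0 h (1.93 to 2.31). Its relative Dnaja2 had 3198, 3868 and 3737, so that there were 19.9 Dnaja1 reads per 100 Dnaja2 reads at 0 h (18.3 to 21.6), 58.9 at 4 h (55.5 to 62.5) and 35.9 at 24 h. Dnaja1 had the highest ratio of the members at 4 h against 0 h. Of its windows 28.8% also occur in other annotated genes, among them Gm15542 and Gm7816, so its level is uncertain. The mitochondrial Dnaja3 had 1010, 792 and 931, and Dnaja4 had 46.7, 26.7 and 40.3, with 51.9% of its windows shared with its neighbour Wdr61.

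In the DNAJB class no gene was higher by 2-fold or more in any of the 3 comparisons. Dnajb1, the HSP40 that is a classical HSF1 target, had 1611, 2007 and 1800 normalized counts at 0, 4 and 24 h, a ratio of 1.25 at 4 h against 0 h. Dnajb5 (249, 449 and 236), Dnajb6 and Dnajb4 (309, 489 and 323) had the highest ratios of the class at 4 h, at 1.80, 1.64 and 1.58. Dnajb9, an ER J protein induced by the unfolded protein response, had 4090, 2115 and 2315, 1.93-fold lower at 4 h than at 0 h (1.83 to 2.05). Dnajb13, known from the axoneme of sperm and cilia, had 648, 305 and 567, 2.13-fold lower at 4 h than at 0 h (1.83 to 2.47). Of the Dnajb13 windows 10.1% are shared with its neighbour Ucp2, which had 44744, 24306 and 31450, and whether Ucp2 reads were counted under Dnajb13 was not tested. The other members were Dnajb2 (416, 301 and 247), Dnajb3 (28.9, 26.7 and 19.7), Dnajb11, Dnajb12 (927, 699 and 648) and Dnajb14 (816, 862 and 721).

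The 24 DNAJC genes differ widely in role. Dnajc13, an endosomal J protein known as RME-8, had 2719, 6262 and 1856 normalized counts at 0, 4 and 24 h, 2.30-fold higher at 4 h than at 0 h (2.20 to 2.41) and 3.37-fold lower at 24 h than at 4 h (3.21 to 3.55). Dnajc21, whose yeast counterpart acts in ribosome maturation, had 464, 1009 and 602, 2.17-fold higher at 4 h than at 0 h (1.94 to 2.44). Dnajc9, a histone co-chaperone, went the other way, with 622, 195 and 663, 3.18-fold lower at 4 h than at 0 h (2.67 to 3.82) and 3.39-fold higher at 24 h than at 4 h (2.85 to 4.06). Of the class, 2 were thus past 2-fold upward and 1 downward at 4 h. Dnajc28 had 99.0, 49.5 and 83.0, just short of the threshold, and the other 20 lay between Dnajc10 at a log2 ratio of 0.66 and Dnajc30 at -0.37.

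The small heat shock protein symbols were at low levels. Hspb6, a small heat shock protein of muscle, had 148, 35.5 and 105 normalized counts at 0, 4 and 24 h, 4.15-fold lower at 4 h than at 0 h (2.76 to 6.45) and 2.96-fold higher at 24 h than at 4 h (1.95 to 4.63). Hspb9 rested on 20, 5 and 6 reads. Hspb11 had 64.4, 124 and 94.5. The HSP70 exchange factor gene Hspbp1 had 762, 486 and 929, a ratio of 0.638 at 4 h against 0 h (0.564 to 0.721), and Hspbap1 had 600, 551 and 542.

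Members were also grouped by compartment from general knowledge, after their values were known, so the counts are a description of these genes. Of 8 members assigned to the ER lumen, 7 were above their 0 h level at 4 h, with log2 ratios from 0.30 for Dnajc1 to 0.66 for Dnajc10 and none past 2-fold, and the exception was Dnajb9 at -0.95. The counts of 7 above and 1 below were the same with both other scalings. Of all genes 50.1% were above 0, with 42.6% when scaled by total reads and 54.3% on the ribosomal scale. The group holds Dnajc1, an ER membrane protein whose J domain faces the lumen. Dnajc16, another ER membrane J protein, was not assigned to the group and stood at -0.23, so the count depends on the assignment. The 22 ER lectin and disulfide chaperones, which are not members, were 11 above and 11 below. Dnajb11 and Dnajc3, co-chaperones of BiP, had 3634, 5165 and 3857 normalized counts and 4002, 5991 and 4054 at 0, 4 and 24 h, and the disulfide reductase Dnajc10 had 1817, 2873 and 2178. Of 8 members assigned to the mitochondria 3 were above and 5 below, between -0.37 and 0.34. Dnajc28 at -0.99 and Dnajc4 at -0.34 were not assigned to this group, so its range depends on the assignment. At 24 h against 0 h the ER group was 4 above and 4 below, with Dnajc1 at -0.76 and Dnajb9 at -0.82, and the mitochondrial group 5 above and 3 below, where 49.8% of all genes were above 0. On the ribosomal scale the ER group became 0 above and 8 below and the mitochondrial group 1 above and 7 below, with 13.2% of all genes above 0. The difference between the compartments was not tested.

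**Figure D4:**
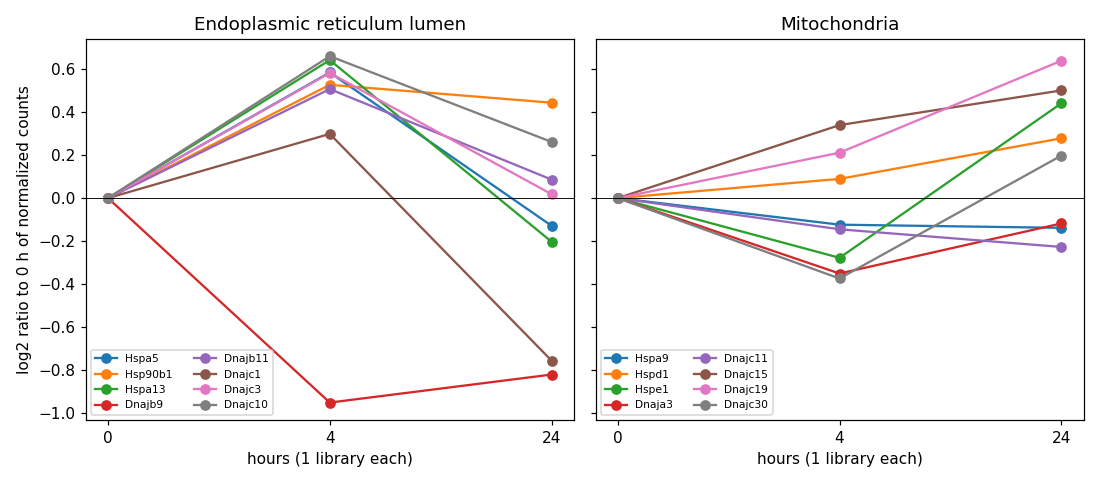
Log2 ratio to 0 h of normalized counts at 4 and 24 h, 1 library each. The left panel holds the 8 members assigned to the ER lumen and the right panel the 8 assigned to the mitochondria. At 4 h 7 of the ER lines are above 0 and Dnajb9 is at -0.95, while the mitochondrial lines stay between -0.37 and 0.34.

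Few members were past 2-fold at 24 h against 0 h. Hspa1b, Hspa1a and Dnaja1 were at least 2-fold higher, 3 of 72 (4.17%), against 4.7% of all 12481 genes. Hspb9, Hspa12a and Dnajc16, the last with 733, 623 and 361 normalized counts at 0, 4 and 24 h, were at least 2-fold lower, again 3 of 72, against 8.82% of all genes. Dnajc16 was 2.03-fold lower, with an interval of 1.81 to 2.29 that reaches below 2-fold. The higher share was near the background, and which of them was larger depended on the setting: with a mean of at least 100 it was 4.62% of members and 2.64% of all genes, with a pseudocount of 10 it was 4.17% and 3.27%, and without the Dnajc genes 6.25% and 4.7%. In the authors' deposited table none of the 72 members had a log2 fold change of 1 or above (0.539% of all genes) or of -1 or below (2.14%). In this comparison 7 of 10 monocyte, 0 of 17 alveolar and 6 of 11 neutrophil markers were higher by 2-fold or more. Lower by that much were 1 monocyte marker and 3 alveolar markers. The monocyte, alveolar and neutrophil sums were 92278, 573086 and 8270 at 24 h against 110739, 935998 and 5194 at 0 h. The part of these markers was not tested. The members that had been higher at 4 h were not all higher at 24 h: Hsp90aa1 had a ratio to 0 h of 2.53 at 4 h and 1.42 at 24 h, Hsph1 of 2.05 and 1.21, Dnajc21 of 2.17 and 1.30, and Dnajc13 of 2.30 and 0.683. Both comparisons share the 0 h library. On the ribosomal scale, which shifted the median of all genes by -0.59, there were 0 higher and 13 lower members (18.1%), against 1.35% and 26.0% of all genes, and Hspa1b then stood at a log2 ratio of 0.72.

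Among other members at 24 h against 0 h, Dnajc5, the cysteine string protein of secretory vesicles, had 4514, 3740 and 2323 normalized counts at 0, 4 and 24 h, 1.94-fold lower at 24 h (1.85 to 2.04). Dnajc2, a ribosome-associated J protein, had 839, 1148 and 1349, 1.61-fold higher (1.48 to 1.75). Dnajc19 and Dnajc15, both linked to mitochondrial protein import, had ratios of 1.56 (1.25 to 1.95) and 1.42. Dnajc17 had 160, 141 and 227 normalized counts at 0, 4 and 24 h, 1.42-fold higher at 24 h than at 0 h (1.17 to 1.73). Dnajc14 was 1.55-fold lower at 24 h than at 0 h (1.45 to 1.65). Other annotated genes share 25.4% of the Dnajc17 windows and 25.6% of the Dnajc14 windows.

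Between 24 h and 4 h 6 members passed 2-fold. Hspa12a, Dnajc9 and Hspb6 were at least 2-fold higher at 24 h, 3 of 72 (4.17%) against 14.1% of all 12684 genes, and Dnajc13, Dnajc27 and Dnajc1 at least 2-fold lower, 3 of 72 against 17.6%. Dnajc27, a Rab-like GTPase with a J domain, had 307, 419 and 198 normalized counts at 0, 4 and 24 h. It was 2.12-fold lower at 24 h than at 4 h (1.79 to 2.51). Dnajc1, an ER membrane protein whose J domain faces the lumen, had 1180, 1452 and 698, 2.08-fold lower (1.90 to 2.27). Both intervals reach below 2-fold. Scaling by total reads, which shifted the median of all genes by 0.32, gave 10 higher and 1 lower, where 22.8% and 12.3% of all genes passed. The ribosomal scale, with a shift of -0.56, gave 2 higher and 18 lower, where 6.06% and 33.0% of all genes passed. In the authors' deposited table for these times, which lists 71 members, 3 were at 1 or above (7.26% of all genes) and 1 at -1 or below (10.2%). Beside these, 9 of 17 alveolar markers and 1 of 12 neutrophil markers were higher by 2-fold or more at 24 h than at 4 h. Lower by that much were 8 of 10 monocyte and 9 of 12 neutrophil markers, and the part of these markers was not tested.

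**Figure D5:**
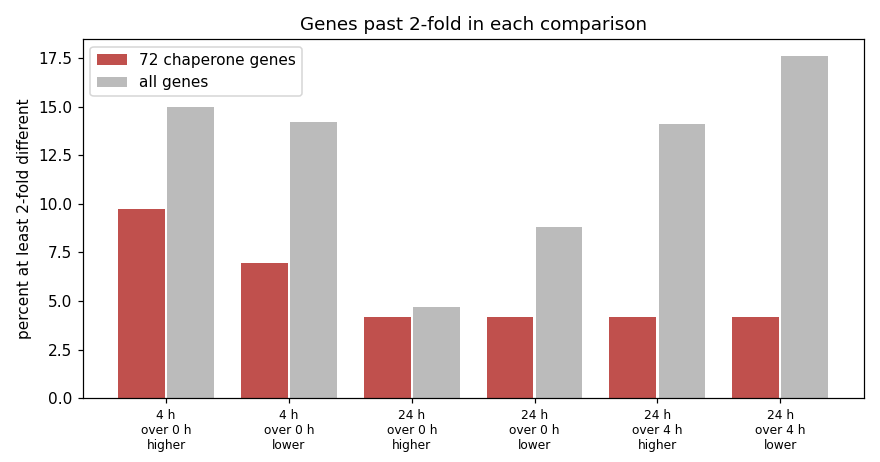
Percent of the 72 members (red, left bar of each pair) and of all genes with a value (grey) at least 2-fold higher or lower in each comparison. At 4 h over 0 h the members' bars are at 9.72% and 6.94%, against 15.0% and 14.2% of all genes, while at 24 h over 0 h the higher bars are near each other, 4.17% and 4.7%.

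Per kilobase of annotated exon the same 4 members led at every time. At 0 h Hsp90ab1 came first with 13689 normalized counts per kilobase, followed by Hspa5 with 9123, Hsp90b1 with 7465 and Hspa8 with 6977, and Cct2 came next with 3319. At 4 h Hspa5 came first with 13681, ahead of Hsp90ab1 with 11591, and at 24 h Hsp90ab1 was first again with 12386. Taken as a whole, the 72 members made up 0.923% of the reads at 0 h (0.919 to 0.927), 0.998% at 4 h (0.994 to 1.00) and 1.05% at 24 h (1.05 to 1.06). Their summed normalized counts were 213941, 258141 and 217710, highest at 4 h, so the order of the later times depends on the scaling. HSP70 genes made up 0.272%, 0.338% and 0.284% of the reads, HSP90 genes 0.244%, 0.241% and 0.297%, and TRiC genes 0.153%, 0.149% and 0.200%.

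Co-chaperones and other partners of these proteins were read against the 15.0% of all genes that were higher and the 14.2% that were lower at 4 h, and in lists of about 10 genes 1 call is near that background. Of 23 HSP90 co-chaperones measured, 1 was at least 2-fold higher at 4 h than at 0 h and none lower, with a median log2 ratio of -0.26. The 1 was Ahsa2, related to the HSP90 ATPase activator, with 258, 617 and 381 normalized counts at 0, 4 and 24 h. Of 10 HSP70 co-chaperones none passed in either direction (median -0.16), and the HSF1 target Bag3 had 1136, 1457 and 1057. Of 10 prefoldin and phosducin-like genes, which hand clients to TRiC, 1 was higher and none lower (median -0.01), the prefoldin subunit Vbp1 at 2.28-fold (2.06 to 2.53). Among 22 ER lectin and disulfide chaperones none was higher and 1 was lower (median -0.02), the BiP exchange factor Sil1 at 2.56-fold (2.20 to 2.98). Of 13 mitochondrial chaperones and proteases 1 was higher (median -0.41), the protease Yme1l1 at 2.12-fold (2.01 to 2.24). Of the 3 heat shock factors and regulators measured beside Hsf1, Hsf2 had 340, 432 and 475, Hsbp1, whose product binds HSF1, had 2368, 1522 and 2518, and Hsf4 had 22.4, 6.35 and 21.4 and was lower. All genes had a median of 0.00 in this comparison.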

How the data were processed

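The deposited signal values are gene counts divided by size factors; per the submitters' processing notes, DESeq2 and build mm10 were used, and no source used here gives the aligner, counter or annotation. Within 0.001 reads, 100% of the values were whole multiples of 1 step, which recovered the read counts. No count model was fitted, since 1 library per group leaves no residual degrees of freedom. The authors' deposited log2 fold changes are shrunken; the deposited p-values were not used.

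A column headed 4 h in the table of 24 h and 0 h equalled the 0 h library in 12310 of 12310 shared genes, so it was given to no sample; 20 repeated rows were dropped. Normalized counts are recovered reads over size factors of 1.07, 0.788 and 1.22 (0, 4 and 24 h), by median of ratios over 12481 genes. Calls used log2 ratios with a pseudocount of 1, and folds used none. Exon lengths and transcripts came from GENCODE (GRCm38), with Python 3.11.15 and scipy 1.17.1. The steps were run on simulated counts in which a few genes were changed, equally many raised and lowered. That run does not test the choice of scaling. Alternatives are given in the closing section. The members and lists were chosen with earlier results of these data known. Named were the 8 members furthest each way in each comparison with a mean of at least 100 over the pair, every HSP90, HSP70, HSP110, HSP60, HSP10 and TRiC gene, Hsf1, the most abundant member of each class, and the furthest gene each way past 2-fold of other lists; all other genes were named after their values were seen.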

Additional observations from a re-analysis of the deposited data

How the results depend on the processing

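Several counts of members past 2-fold depend on the setting. At 4 h against 0 h the 7 higher members became 4 with scaling by total reads, 3 with the authors' deposited log2 fold changes and 4 without the 6 members that share over 50% of their windows with another gene, an alternative chosen after seeing the data, and the 5 lower became 3 when members under a mean of 100 were left out and 3 with the deposited values. At 24 h against 0 h the 3 higher became 0 with ribosomal scaling, 0 with the deposited values and 1 without the window-sharing members, and the 3 lower became 13 and 0 with the first 2 of these. At 24 h against 4 h the 3 higher became 10 with scaling by total reads, and the 3 lower became 1 with total reads, 18 with ribosomal scaling, 1 with the deposited values and 0 without the Dnajc genes, which were all 3 of them. The cause was not tested, except that the deposited values are shrunken and the last alternative removes genes. With a pseudocount of 10 no count moved by more than 1.5 times. No single-gene value past 2-fold turned its direction under the 4 alternatives run for single genes (deposited values, pseudocount of 10 and both scalings). No paired analysis was possible because each time point has 1 library. Depth limits Hspb9, Hspa12b and Hspa1l.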

Other observations

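Outside the chaperones, 2 further stress lists gave the following values. Of 10 genes of the ubiquitin and aggregate response none was at least 2-fold higher at 4 h than at 0 h and 1 was at least 2-fold lower, with a median log2 ratio of -0.33, where 15.0% of all genes were higher and 14.2% lower. The lower gene was Sqstm1, the autophagy receptor p62, with 22638, 10264 and 9020 normalized counts at 0, 4 and 24 h, 2.21-fold lower at 4 h than at 0 h (2.15 to 2.26). Of 20 immediate-early genes, which respond within minutes to many stimuli, 2 were at least 2-fold higher and 3 lower at 4 h than at 0 h, counts near that background. At 24 h against 0 h none passed 2-fold upward and 6 passed it downward, where 4.7% and 8.82% of all genes did. Ier3 was 4.53-fold higher (4.35 to 4.72) and Fosb 3.19-fold lower (3.12 to 3.27) at 4 h than at 0 h.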
